A study of Mus musculus with 13 samples.

Results

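The 10 circadian clock genes Arntl, Clock, Npas2, Per1, Per2, Cry1, Cry2, Nr1d1, Nr1d2 and Dbp were followed across 13 libraries of sorted nuclei from mouse heart ventricles. They were taken by gene symbol from a deposited table of 55536 genes, and all 10 were present and passed the count filter that kept 16125 genes for testing. All mice were C57BL/6J, an inbred strain, and were injected intraperitoneally on postnatal day 1 with adeno-associated virus serotype 6. Ventricles were taken on postnatal day 56. The virus carried human PR (AAV_PGR, the PGR vector) or had no insert (AAV_Con, the control vector). The groups were PGR-vector females (PGR_F, 3 libraries, numbered 1, 2 and 4), control-vector females (Con_F, 4), PGR-vector males (PGR_M, 3) and control-vector males (Con_M, 3). Each library pooled 3 to 6 whole ventricles, and nuclei were collected by a sort on Pcm1, a protein of centriolar satellites used as a marker of cardiomyocyte nuclei. The promoter that drives the insert and the time of day at collection are not given in the sources used here, so a library's clock genes were read library by library.

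In the mammalian clock, Arntl (BMAL1) pairs with Clock or with the related Npas2 and switches on genes that carry E-boxes, among them the Per and Cry genes, Nr1d1, Nr1d2 and Dbp. PER and CRY proteins then block the activators, and the NR1D1 and NR1D2 proteins (REV-ERBs) silence Arntl, Clock and Npas2, so that activators and repressors peak at different times of the day. Heart muscle cells run this clock themselves, and the levels of these transcripts in a heart depend strongly on the hour of collection.

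The libraries held 31.8 to 86.3 M counts, and values are counts per M (CPM) scaled by the trimmed mean of M-values (TMM). Counts were taken over the whole span of each gene, introns included, so unspliced RNA in the nuclei can contribute. Among the genes that check the labels, Pcm1 had 103 to 139 CPM, Xist had 739.6 to 1203 CPM in the female libraries and at most 1.05 CPM in the male libraries, and Uty had 232 to 281 CPM in the male libraries. Uty stood at 0.0467 to 0.218 CPM in 6 female libraries and at 2.75 CPM in Con_F 4, which therefore stands apart. The mouse Pgr gene had 0 to 8 counts per library, and the human insert was not measured here. All 10 cardiomyocyte markers were detected in every library, with a summed level of 81629 to 101144 CPM, while the summed levels of 8 endothelial markers (23.9 to 64.5 CPM) and 8 macrophage and leukocyte markers (7.72 to 18.0 CPM) were low. In such bulk material, fewer nuclei of a type and less RNA per nucleus cannot be told apart.

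Promoter sequences were looked at because the members moved together across libraries, as described further on. RefSeq windows on GRCm38.p6, running from 250 bases before to 50 bases after a transcript start, matched 9 of the 10 members, with 13 windows in all. Per2 is named only. The windows were searched for the E-box CACGTG, which reads the same on both strands and is bound by Arntl dimers, for the D-box TTATGTAA, bound by Dbp and its relatives, and for TAGGTCA, the core of the element bound by ROR and REV-ERB receptors, the last 2 on both strands. No match overlapped another. The E-box occurred in 2 of the 13 windows, those of Per1 (chr11:69098699-69098998, plus strand, 166 bases before the start) and Cry1 (chr10:85185005-85185304, minus strand, 60 bases before the start), and in 7.15% of all 32851 windows. The receptor element occurred in 1 window, that of Arntl (chr7:113207261-113207560, plus strand, 30 bases past the start), and in 2.61% of all windows. The D-box occurred in 0 windows of members and in 0.938% of all windows. Ciart (chr3:95882179-95882478, minus strand), a clock repressor outside the 10 members, is shown beside them because it had the widest range of any clock gene listed here, and its window held 3 E-boxes. Capitals mark the matches in these windows, each written 5′ to 3′ on the strand of its gene.
Arntl: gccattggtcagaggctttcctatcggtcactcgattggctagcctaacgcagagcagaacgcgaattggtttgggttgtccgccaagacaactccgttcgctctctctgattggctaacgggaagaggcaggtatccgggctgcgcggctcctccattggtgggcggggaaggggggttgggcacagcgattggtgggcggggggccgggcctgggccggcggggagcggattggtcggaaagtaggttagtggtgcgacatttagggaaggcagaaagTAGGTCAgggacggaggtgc
Per1: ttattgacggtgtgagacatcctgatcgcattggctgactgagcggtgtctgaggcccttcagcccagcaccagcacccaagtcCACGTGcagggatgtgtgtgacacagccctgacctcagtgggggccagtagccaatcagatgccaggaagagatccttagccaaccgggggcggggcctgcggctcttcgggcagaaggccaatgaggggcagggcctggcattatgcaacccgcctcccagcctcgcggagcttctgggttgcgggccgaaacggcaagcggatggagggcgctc
Cry1: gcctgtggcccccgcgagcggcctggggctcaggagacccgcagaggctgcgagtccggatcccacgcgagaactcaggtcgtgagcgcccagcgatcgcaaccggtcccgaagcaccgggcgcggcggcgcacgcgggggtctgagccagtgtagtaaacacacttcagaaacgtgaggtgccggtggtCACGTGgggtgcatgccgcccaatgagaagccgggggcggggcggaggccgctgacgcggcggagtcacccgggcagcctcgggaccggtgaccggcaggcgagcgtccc
Ciart: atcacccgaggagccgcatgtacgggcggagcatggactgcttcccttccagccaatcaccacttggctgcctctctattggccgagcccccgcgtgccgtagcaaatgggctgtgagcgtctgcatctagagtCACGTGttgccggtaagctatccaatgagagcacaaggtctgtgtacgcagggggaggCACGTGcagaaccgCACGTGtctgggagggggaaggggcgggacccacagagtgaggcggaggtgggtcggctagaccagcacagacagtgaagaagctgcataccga
A match describes these letters only, and no match says only that they are not in the window.

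The activators came first. Arntl (ENSMUSG00000055116, chr7:113207465-113314126, plus strand) had the widest range of the 10 members. Its level was 37.8, 28.6 and 87.7 CPM in PGR_F 1, 2 and 4, and 7.68, 18.5, 77.7 and 91.7 CPM in Con_F 1 to 4. In males it was 54.3, 104 and 89.3 CPM in PGR_M 1 to 3, and 12.1, 98.1 and 123 CPM in Con_M 1 to 3. Con_F 1, Con_M 1 and Con_F 2 were lowest and Con_M 3 was highest, 16.0-fold above Con_F 1, so the extremes on both sides were control-vector libraries and every group overlapped the others.

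Clock (ENSMUSG00000029238, chr5:76209868-76304792, minus strand) and Npas2 (ENSMUSG00000026077, chr1:39193731-39363236, plus strand), the partners of Arntl, followed it over a narrower range. Clock had 88.7, 70.9 and 107 CPM in PGR_F, 36.1, 61.9, 85.3 and 103 CPM in Con_F, 89.1, 108 and 111 CPM in PGR_M, and 49.6, 99.6 and 121 CPM in Con_M. Npas2 had 114, 87.5 and 139 CPM in PGR_F, 64.2, 75.9, 109 and 114 CPM in Con_F, 108, 147 and 140.5 CPM in PGR_M, and 60.2, 129 and 156 CPM in Con_M. Con_M 3 was the highest library for all 3 activators. The lowest was Con_F 1 for Clock and Con_M 1 for Npas2, and the highest stood 3.34-fold above the lowest for Clock and 2.60-fold for Npas2.

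Among the PER and CRY repressors, Per2 (ENSMUSG00000055866, chr1:91415982-91459324, minus strand) ran against Arntl. It had 14.0, 21.8 and 8.68 CPM in PGR_F 1, 2 and 4, and 77.8, 37.9, 9.31 and 6.66 CPM in Con_F 1 to 4. In males it had 10.2, 10.97 and 7.17 CPM in PGR_M 1 to 3, and 58.0, 27.3 and 5.66 CPM in Con_M 1 to 3. Con_F 1, Con_M 1 and Con_F 2, the 3 libraries lowest in Arntl, were the 3 highest in Per2, and Con_M 3 was the lowest, a 13.7-fold range. Per1 (ENSMUSG00000020893, chr11:69095217-69109960, plus strand), which responds to acute signals as well as to the clock, had 32.8, 40.6 and 28.4 CPM in PGR_F, 123, 38.2, 30.0 and 30.7 CPM in Con_F, 34.5, 23.0 and 22.3 CPM in PGR_M, and 79.4, 36.0 and 13.2 CPM in Con_M. Con_F 1 and Con_M 1 stood above the other 11 libraries.

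Cry1 (ENSMUSG00000020038, chr10:85131700-85185064, minus strand), the lowest of the members, had 5.71, 6.85 and 4.58 CPM in PGR_F 1, 2 and 4, and 9.62, 8.31, 4.62 and 4.20 CPM in Con_F 1 to 4. In males it had 4.46, 5.12 and 4.33 CPM in PGR_M 1 to 3, and 11.04, 8.86 and 5.57 CPM in Con_M 1 to 3. PGR_M lay below Con_M without overlap, while PGR_F lay inside the range of Con_F. In males the adjusted p was 0.611 (edgeR). The share of all genes that separate without overlap is not given here. Cry2 (ENSMUSG00000068742, chr2:92403646-92434043, minus strand) ranged 1.94-fold, with 37.0 to 44.4 CPM in PGR_F, 30.9 to 60.1 in Con_F, 33.2 to 44.7 in PGR_M and 31.4 to 53.9 in Con_M, so every group overlapped the others. Cry2 lies across an opposite-strand gene, D930015M05Rik, which had 184 counts in all libraries together against 26469 for Cry2.

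By the SD around the group means, given further on, the REV-ERB genes were the steadiest members. Nr1d1 (ENSMUSG00000020889, chr11:98767932-98775333, minus strand), a repressor of Arntl and usually strongly rhythmic, had 50.5, 72.9 and 55.0 CPM in PGR_F, 62.1, 50.2, 40.2 and 68.0 CPM in Con_F, 62.0, 55.9 and 53.5 CPM in PGR_M, and 55.3, 42.6 and 64.3 CPM in Con_M. Its range was 1.81-fold, its highest library was PGR_F 2 and its lowest was Con_F 3. Nr1d1 shares 1075 bases with Thra on the opposite strand, so its count from those bases is uncertain, in either direction, unless counting used strand. The labels describe strand-aware libraries, and their name for the count table holds the term strrev, which points to reverse-stranded counting, but no source used here states the setting. Nr1d2 (ENSMUSG00000021775, chr14:18204054-18239127, minus strand), its paralogue, had 222 to 330.5 CPM in PGR_F, 220.3 to 347 in Con_F, 213 to 226 in PGR_M and 178 to 301 in Con_M, with Con_F 1 the highest and Con_M 3 the lowest.

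Dbp (ENSMUSG00000059824, chr7:45705088-45710203, plus strand), a transcription factor that is a direct output of the clock, had 47.4, 54.5 and 17.6 CPM in PGR_F 1, 2 and 4, and 99.4, 61.3, 26.0 and 22.3 CPM in Con_F 1 to 4. In males it had 40.4, 29.9 and 16.6 CPM in PGR_M 1 to 3, and 75.0, 31.3 and 11.95 CPM in Con_M 1 to 3. The extremes were again Con_F 1 and Con_M 3, 8.31-fold apart, PGR_M lay inside the range of Con_M, and PGR_F 4 lay below the lowest Con_F library. Dbp shares 737 bases with Sphk2 on the opposite strand, with the same limit as for Nr1d1. Over the 10 members, Con_F 1 held the highest value of 5 and Con_M 3 the highest value of 3.

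**Figure D1:**
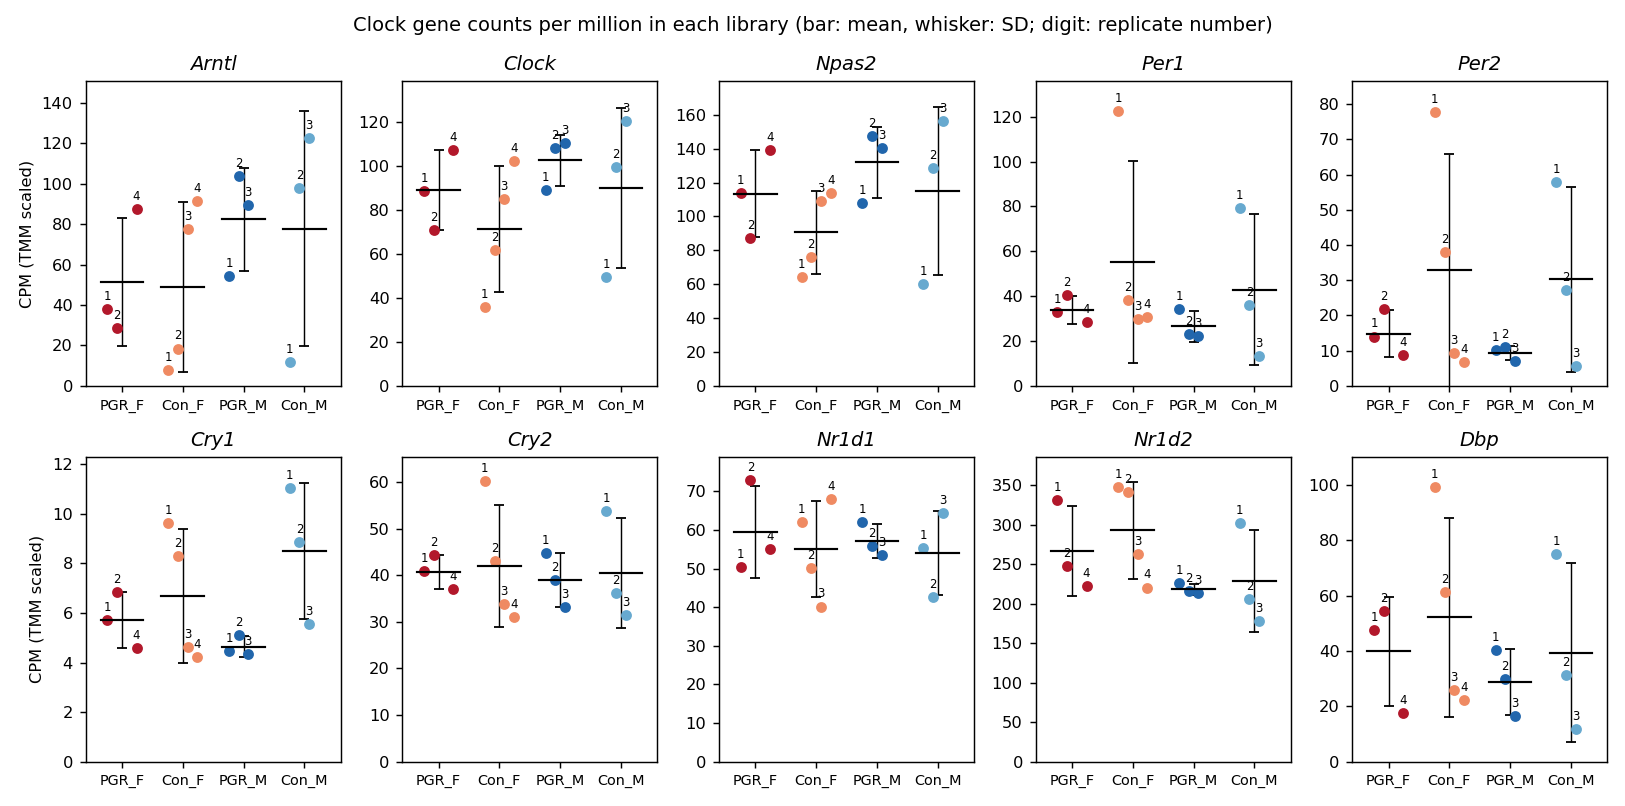
CPM (TMM scaled, vertical axes from 0) of each clock gene in every library, by group; each point is a library with its replicate number, the line is the group mean and the whisker its SD. Con_F 1 (7.68 CPM of Arntl, 77.8 CPM of Per2) and Con_M 3 (123 and 5.66 CPM) sit at opposite ends, and PGR libraries lie between them for Arntl, Per2 and Dbp.

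Per kb of gene span, mean levels over the 13 libraries were 8.02 CPM per kb for Dbp, 7.61 for Nr1d1 and 7.26 for Nr1d2. The spans include introns and run from 5.12 kb for Dbp to 170 kb for Npas2. These values therefore do not rank the genes by transcript level. The values of Dbp, Nr1d1 and Nr1d2 differed by less than their SD over libraries (5.04, 1.28 and 1.62). Per1 followed with 2.77 ± 1.97 CPM per kb and Cry2 with 1.34 ± 0.286 (SD, n = 13), which overlapped in range. Clock (0.916 ± 0.269), Npas2 (0.655 ± 0.186), Arntl (0.599 ± 0.366) and Per2 (0.524 ± 0.519) formed a lower stretch in which no neighbours differed beyond their SD. Cry1 was lowest, at 0.120 ± 0.0433 CPM per kb.

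The spread between libraries of the same group set Arntl, Per2, Dbp and Per1 apart most clearly. The SD of log2 CPM around the group means was 1.39 for Arntl, 1.30 for Per2, 1.00 for Dbp and 0.85 for Per1, against a median of 0.19 over the 16125 tested genes. Arntl ranked 26 from the top and Per2 ranked 28. Clock (0.52), Npas2 (0.46), Cry1 (0.44) and Cry2 (0.33) came next, and Nr1d2 (0.30) and Nr1d1 (0.28) were lowest. Among the 11144 genes with a mean log2 CPM of at least 1, 9 members lay above the 90th percentile and Nr1d1 lay at percentile 89.2. The standing depends on the genes compared. Among all 16125 tested genes, Npas2 (percentile 88.4), Cry1 (87.1), Cry2 (76.3), Nr1d2 (71.2) and Nr1d1 (68.8) lay below the 90th percentile. Ciart, with 4 counts in Con_M 3 and 733 in Con_F 1, had an SD of 2.21. It had 0.717, 1.14 and 0.136 CPM in PGR_F, 12.7, 4.06, 0.431 and 0.291 CPM in Con_F, 0.605, 1.14 and 0.328 CPM in PGR_M, and 8.40, 5.75 and 0.125 CPM in Con_M.

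**Figure D2:**
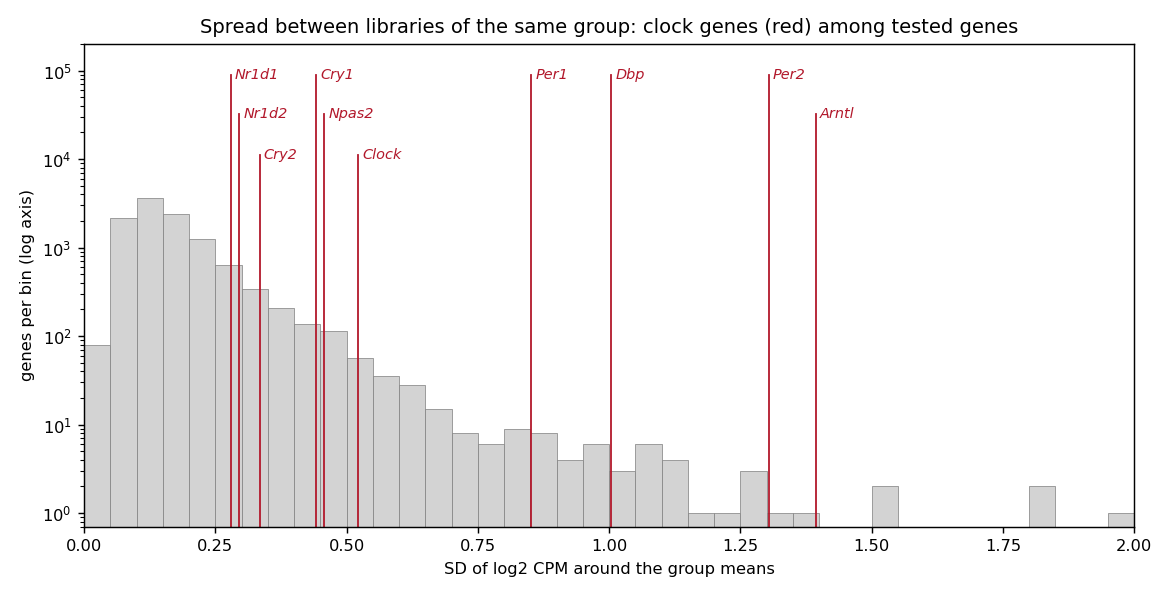
Number of genes (log axis) by the SD of log2 CPM around the group means, for genes with a mean log2 CPM of at least 1, with the 10 clock genes as red lines; 3 genes with an SD above 2 are not drawn. Arntl (1.39), Per2 (1.30), Dbp (1.00) and Per1 (0.85) lie in the far right tail, and Nr1d1 (0.28) and Nr1d2 (0.30) nearest the bulk.

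A clock state was computed for each library, as the mean centred log2 CPM of Nr1d1, Nr1d2, Dbp, Per1 and Per2 minus that of Arntl, Npas2 and Clock. It was 0.15, 0.76 and -1.002 in PGR_F 1, 2 and 4, and 2.78, 1.27, -0.61 and -0.83 in Con_F 1 to 4. In males it was -0.18, -0.96 and -1.19 in PGR_M 1 to 3, and 2.08, -0.51 and -1.75 in Con_M 1 to 3. Con_F 1, Con_M 1 and Con_F 2 were highest. Con_F, Con_M and PGR_F each held values of both signs, while PGR_M 1 to 3 were all negative. Each gene was centred on its mean over the 13 libraries, so the sign is relative to these libraries. The 6 PGR libraries spanned 1.96 on the log2 scale (-1.19 to 0.76) and the 7 control libraries spanned 4.53 (-1.75 to 2.78). This difference in spread was not tested. The ratio of Dbp to Arntl, a simpler reading, ran from 0.0976 in Con_M 3 to 12.9 in Con_F 1. Con_M 1 and Con_F 1, highest in clock state, were also the 2 deepest libraries, with 86.3 and 58.9 M counts, while the shallowest, PGR_F 1 (31.8 M), was in the middle. The part of depth in these values was not tested.

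**Figure D3:**
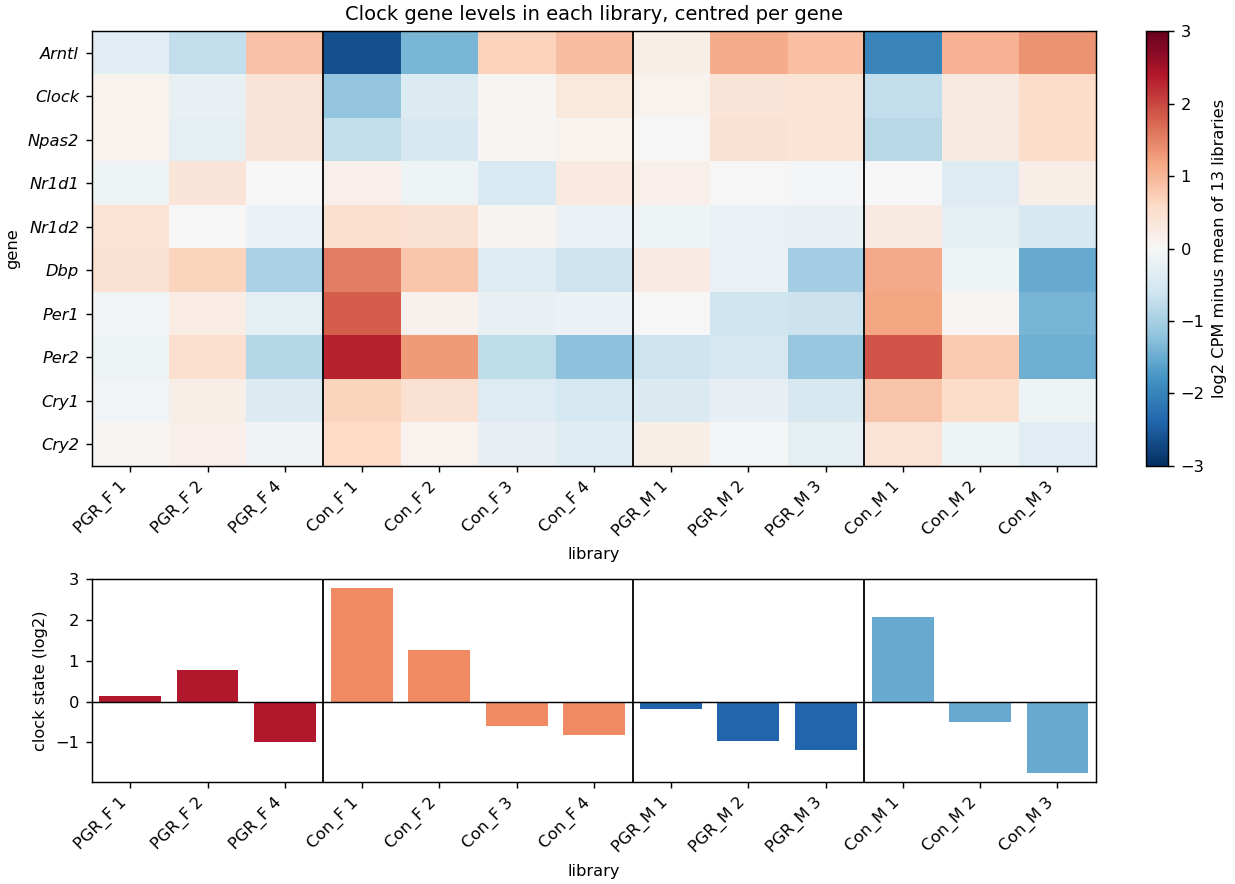
Upper panel, log2 CPM of each clock gene minus its mean over the 13 libraries (colour, -3 to 3), one column per library with lines between groups; lower panel, the clock state of each library on the log2 scale. Con_F 1 (2.78), Con_M 1 (2.08) and Con_F 2 (1.27) have low Arntl, Clock and Npas2 with high Dbp and Per2, and Con_M 3 (-1.75) the reverse. Centred Per1 is high in Con_F 1 (1.82) and Con_M 1 (1.19), near its mean in Con_F 2 (0.14) and lowest in Con_M 3 (-1.39).

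Across the 13 libraries the members moved as 2 opposed sets. Pearson's r with Arntl on log2 CPM was 0.97 for Clock and 0.95 for Npas2, and -0.92 for Dbp, -0.91 for Cry2, -0.89 for Per1, -0.89 for Per2 and -0.86 for Nr1d2. These 7 of 9 passed a two-sided permutation test with Benjamini-Hochberg adjustment over all 16124 other tested genes, of which 2.07% passed (1.56% positive, 0.502% negative). The raw p was 1e-05, the smallest that 100000 permutations can give, for Clock, Npas2 and Dbp (adjusted p = 0.00896), 2e-05 for Per1 (adjusted 0.0124), 5e-05 for Cry2 (0.0155), 0.00022 for Per2 (0.0285) and 0.00033 for Nr1d2 (0.0330). Cry1 had r = -0.75 (p = 0.0044, adjusted 0.1005, permutation test) and Nr1d1 had r = -0.16 (p = 0.592, adjusted 0.819). The points share a normalisation, and libraries of all groups are pooled. With the group means removed, r was 0.98 for Clock, 0.96 for Npas2, -0.91 for Dbp, -0.95 for Cry2, -0.87 for Per1, -0.90 for Per2, -0.87 for Nr1d2, -0.88 for Cry1 and -0.22 for Nr1d1.

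By rank, Spearman's rho with Arntl was 0.92 for Clock (permutation p = 2e-05, adjusted 0.0215), 0.93 for Npas2 (p = 1e-05, adjusted 0.0215) and -0.92 for Nr1d2 (p = 3e-05, adjusted 0.0269), and these passed. For Dbp (-0.85, p = 0.00055, adjusted 0.0759), Cry2 (-0.82, p = 0.00111, adjusted 0.0917), Per1 (-0.82, p = 0.001, adjusted 0.0890) and Per2 (-0.74, p = 0.0057, adjusted 0.150) the adjusted p missed 0.05 in this permutation test. The rank correlation was -0.53 for Cry1 (p = 0.0679, adjusted 0.359) and 0.02 for Nr1d1 (p = 0.963, adjusted 0.991). Leaving out Con_F 1 and Con_M 1, the 2 libraries farthest from the median of Arntl, r was 0.94 for Clock (permutation p = 5e-05), 0.91 for Npas2 (5e-05), -0.86 for Dbp (0.00038), -0.84 for Nr1d2 (0.00227), -0.76 for Cry2 (0.006), -0.72 for Per2 (0.0127) and -0.67 for Per1 (0.0258). It was -0.48 for Cry1 (0.133), which therefore rested on those libraries, and -0.07 for Nr1d1 (0.835). Without Con_F 1 alone, Per1 (r = -0.81, adjusted p = 0.0679), Cry2 (-0.86, 0.0683), Nr1d2 (-0.83, 0.125) and Per2 (-0.83, 0.128) no longer passed the permutation test. Dbp (-0.89, 0.0496) and Clock (0.96, 0.0322) still did. Over all genes 333 were related to Arntl, against 13 without Con_F 1, and 26 by rho.

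**Figure D4:**
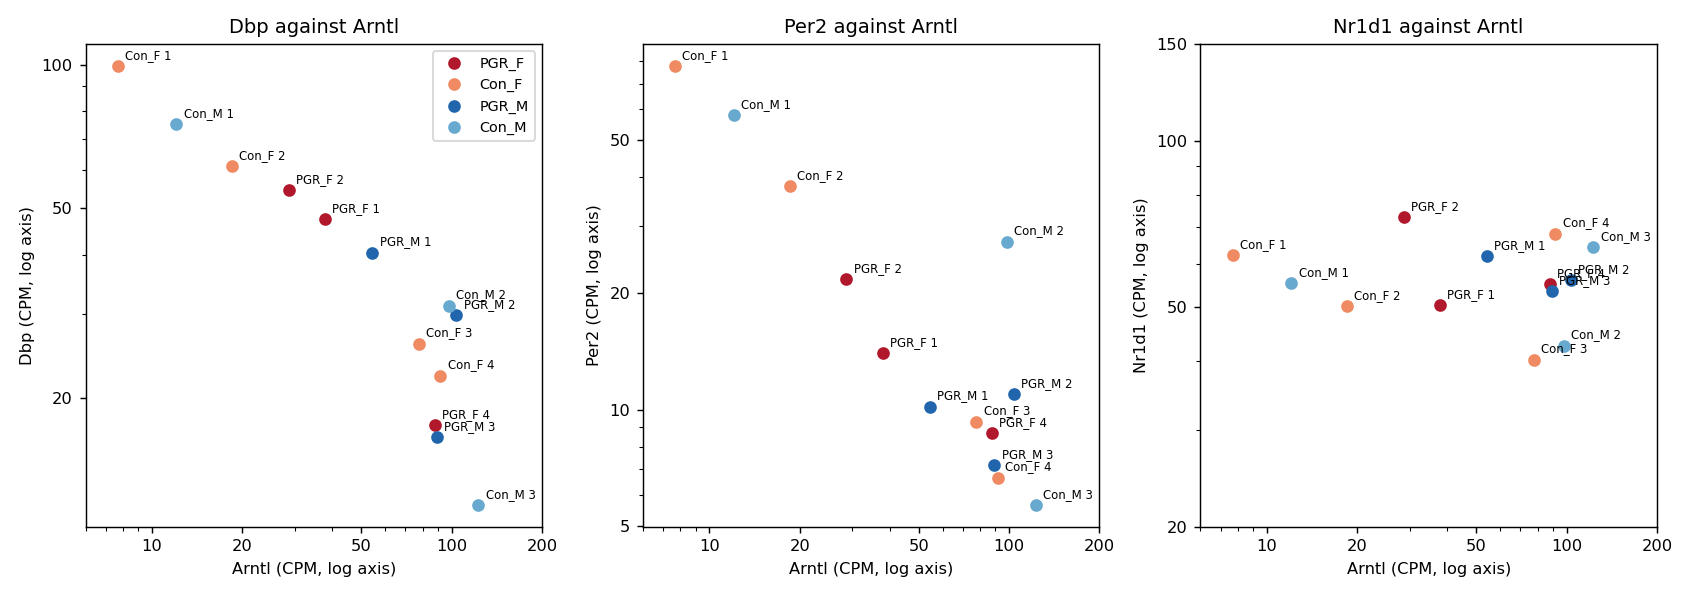
CPM of Dbp, Per2 and Nr1d1 against CPM of Arntl, both on log axes, with each library labelled and coloured by group. Dbp is lower where Arntl is higher (r = -0.92), Con_M 2 (27.3 CPM of Per2 at 98.1 CPM of Arntl) lies off the Per2 trend, and Nr1d1 shows no trend (r = -0.16).

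Con_M 2 broke the pattern for a subset of members. Its Arntl (98.1 CPM) and Dbp (31.3 CPM) were close to those of PGR_M 2 (104 and 29.9 CPM). Its Per2 was 27.3 CPM, against 10.97 in PGR_M 2, its Cry1 was 8.86 CPM, against 5.12, and its Ciart was 5.75 CPM, against 1.14. The same library was high in Zbtb16, a glucocorticoid- and progesterone-responsive transcription factor, with 1951 CPM, next to 2150 in Con_F 1, 1496 in Con_F 2 and 1046 in Con_M 1, and 411 to 837 in the other 9 libraries. Without Con_M 2, r with Arntl was -0.98 for Per2 (adjusted permutation p = 0.00645) and -0.90 for Cry1 (adjusted p = 0.0244), so that Cry1 then passed. Con_M 2 was picked because it lay off these trends, so a stronger r without it follows from that choice. Without Con_M 1, r with Arntl was -0.67 for Cry1 (adjusted permutation p = 0.208). These comparisons of single libraries were chosen after their values were seen.

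Relations to Dbp, the output gene, gave 92 of the 16124 other genes (0.571%; 0.130% positive and 0.440% negative) and 6 of the 9 other members. Cry2 (r = 0.91, adjusted p = 0.0186), Per2 (0.90, adjusted 0.0186) and Per1 (0.88, adjusted 0.0107) were positive, and Arntl (-0.92, adjusted 0.0107), Clock (-0.90, adjusted 0.0107) and Npas2 (-0.89, adjusted 0.0208) negative, by permutation. Nr1d2 (r = 0.84, adjusted p = 0.0528), Cry1 (0.73, adjusted 0.145) and Nr1d1 (0.06, adjusted 0.958) did not pass. Spearman's rho passed for Per1 (0.93, adjusted p = 0.0248), Per2 (0.94, adjusted 0.0248), Clock (-0.92, adjusted 0.0285), Npas2 (-0.88, adjusted 0.0413) and Cry2 (0.89, adjusted 0.0491), and not for Arntl (adjusted 0.0797). Leaving out Con_F 1 and Con_M 3, farthest from the median of Dbp, r was -0.89 for Arntl, -0.88 for Clock, 0.87 for Cry2, -0.84 for Npas2, 0.84 for Per2 and 0.79 for Per1. Without Con_F 1 alone, 0 genes passed with Dbp. The r with Dbp was then -0.89 for Arntl, 0.88 for Cry2, -0.86 for Npas2 and 0.86 for Per2 (adjusted permutation p = 0.0926 to 0.0943).

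Among genes with a mean log2 CPM of at least 1 that are not clone-named, those most like Arntl over the 13 libraries were Slc41a3 (r = 0.99), a magnesium transporter gene, then Clock (0.97), Tmem171 (0.96), Gstm7 (0.96) and Npas2 (0.95). Slc41a3 had 61.5, 58.5 and 137 CPM in PGR_F, 23.1, 34.8, 112 and 139 CPM in Con_F, 82.8, 156 and 129 CPM in PGR_M, and 25.1, 115 and 135 CPM in Con_M. Its 3 lowest libraries were those of Arntl. The most opposed were Tef (-0.93), Dbp (-0.92), Lifr (-0.92), Cry2 (-0.91) and Wbp11 (-0.91). Closest to Dbp were Hlf (0.97) and Tef (0.95), which encode the other PAR-domain factors of its family, then Cry2 (0.91), Fam76a (0.90) and Ttll5 (0.90). The most opposed to Dbp were Snx30 (-0.95), Sh3bp5 (-0.93), Arntl (-0.92), Tmem171 (-0.92) and Exd2 (-0.91).

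The other clock genes moved with the members only in part. Of 23 tested, 1 rose with Arntl and 5 fell with it past the threshold of the permutation test. Over all 16124 other genes these shares were 1.56% and 0.502%. The positive gene was Nfil3 (r = 0.88, adjusted p = 0.0243), the E4BP4 repressor that competes at D-boxes. The negative genes were Tef (-0.93), Hlf (-0.90), Bhlhe41 (-0.85), Usp2 (-0.85) and Bhlhe40 (-0.84), with adjusted p of 0.0124 to 0.0438. Bhlhe40 and Bhlhe41 encode DEC repressors that bind E-boxes. With Dbp, Hlf, Tef and Ciart (0.85) passed on the positive side and Nfil3 (-0.85) on the negative side, where 0.13% and 0.44% of all genes passed. Tef had 148, 144 and 92.6 CPM in PGR_F, 300.4, 205, 96.0 and 85.9 CPM in Con_F, 135, 108 and 100.3 CPM in PGR_M, and 249, 147 and 71.4 CPM in Con_M, highest in the same 3 libraries as Per2. Genes of the clock's kinases and nuclear receptors held more steady values: Csnk1d (casein kinase 1 delta) ranged from 58.4 to 70.6 CPM (r = -0.50 with Arntl), Rora, an activator of Arntl, from 1728 to 2666 CPM (r = -0.22), and Arntl2, a paralogue of Arntl, from 10.6 to 15.7 CPM (r = -0.12), none of which passed. Per3 was listed at 0 in every library. The median absolute r with Arntl was 0.887 over 9 members and 0.348 over the 23 other clock genes, beside 0.299 over all genes.

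Of 16 genes known as outputs of the heart clock, 1 passed on the positive side with Arntl and 2 on the negative side. Over all 16124 other genes, 1.56% passed with Arntl on the positive side and 0.502% on the negative side, and 0.571% passed with Dbp. Tfrc, the transferrin receptor gene, was positive (r = 0.78, adjusted permutation p = 0.0441), and Tspan4 (-0.83, adjusted 0.0285) and Tcap, a sarcomere Z-disc gene (-0.82, adjusted 0.0444), were negative. Wee1, a cell cycle kinase gene under E-box control, passed with Dbp (0.85, adjusted 0.0442) and had -0.82 with Arntl (adjusted 0.0577). Its level was 12.995 CPM in Con_F 1, 13.5 in Con_M 1, 11.2 in Con_F 2 and 9.23 in Con_M 2, and 3.98 to 7.08 CPM in the other 9 libraries. The potassium channel subunit genes Kcnip2 (r = -0.23), Kcnd2 (0.18) and Kcnh2 (-0.46) did not pass with Arntl. The median absolute r of these 16 genes with Arntl was 0.606, beside 0.299 over all genes.

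Genes that answer to other daily cues showed no call with Arntl or Dbp among 11 glucocorticoid-responsive, 11 immediate early and 8 temperature-responsive genes tested. Over all genes 2.07% passed with Arntl and 0.571% with Dbp, so no call in lists this short is near those shares. Their median absolute r with Arntl was 0.495, 0.215 and 0.692, beside 0.299 over all genes. Of the temperature-responsive genes, 7 of 8 had a negative r with Arntl, among them Hsph1, a heat shock protein gene (-0.74, adjusted permutation p = 0.101), and Rbm3, a cold-induced RNA-binding protein gene (-0.70, adjusted 0.129).

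The study's main question, what the progesterone receptor does in ventricles of each sex, was asked of these genes in 3 vector contrasts and an interaction. No member passed edgeR's quasi-likelihood test in any of them. In females, log2 fold changes of PGR_F over Con_F ran from -1.16 (SE 0.94) for Per2 to 0.32 (SE 0.32) for Npas2, with a lowest adjusted p of 0.691. In males, PGR_M over Con_M ran from -1.70 (SE 1.01) for Per2 to 0.20 (SE 0.34) for Npas2, with a lowest adjusted p of 0.611, that of Cry1 (-0.89, SE 0.32). Over all 16125 genes edgeR called 0 (0%) in females and 0 (0%) in males, where 1765 and 1206 genes had an unadjusted p under 0.05, DESeq2 called 81 and 29 and limma-voom 0 and 0. With both sexes averaged, 1 gene (0.0062%) was called.

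In that averaged comparison Cry1 came nearest to the threshold of the members, at a log2 fold change of -0.56 (SE 0.22, adjusted p = 0.272, edgeR). It averaged 5.71 ± 1.14 CPM in PGR_F and 6.69 ± 2.69 CPM in Con_F, and 4.64 ± 0.424 CPM in PGR_M and 8.49 ± 2.75 CPM in Con_M (SD, n = 3, 4, 3 and 3). Per2 had -1.43 (SE 0.69, adjusted p = 0.380) and averaged 14.8 ± 6.59 CPM in PGR_F and 32.9 ± 33.1 in Con_F, and 9.44 ± 2.01 in PGR_M and 30.3 ± 26.3 in Con_M. Per1 (-0.71, SE 0.48) and Dbp (-0.43, SE 0.54) were also below 0, and Arntl (0.09, SE 0.69), Clock (0.26, SE 0.27), Npas2 (0.26, SE 0.23), Nr1d1 (0.09, SE 0.14), Nr1d2 (-0.10, SE 0.14) and Cry2 (-0.05, SE 0.17) lay nearer 0. 6 of the 10 members were below 0, with a median of -0.08, beside a median of 0.00 over all genes. The median SE was 0.25 for the members and 0.10 for all genes, so that a change in Arntl of 1 log2 unit would be within 2 standard errors.

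**Figure D5:**
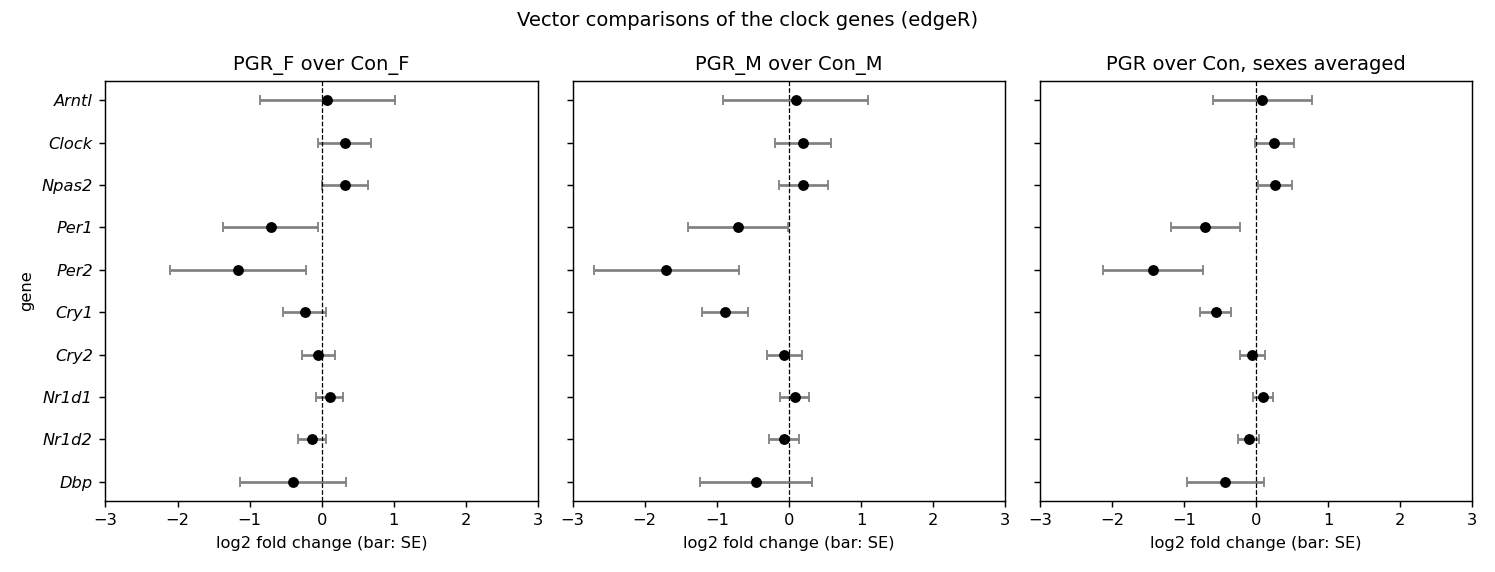
Log2 fold change of each clock gene (point) with its SE (bar) from edgeR, for PGR_F over Con_F, PGR_M over Con_M and PGR over Con averaged over the sexes. Per2 lies lowest in all 3 (-1.16, -1.70 and -1.43) with a wide SE, and no member passed the test.

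The 3 libraries with the lowest Arntl were all control-vector libraries, 2 female and 1 male. An edgeR fit with the Arntl level of each library as a covariate, added after the data were seen, gave smaller standard errors for the 9 other members except Nr1d1 (0.14 in both). Per2 was then -0.54 (SE 0.34, adjusted p = 0.533), Per1 -0.17 (SE 0.23), Cry1 -0.34 (SE 0.12, adjusted p = 0.221) and Dbp 0.14 (SE 0.23). The sign turned for Dbp, for Cry2 (0.12, SE 0.06) and for Nr1d2 (0.03, SE 0.08). None of the 9 other members passed in any contrast of that fit, and over all genes it called 17 in the averaged comparison, against 1 without the covariate. A vector effect on Arntl itself would be removed by this fit, and collection time and vector cannot be told apart where the time is unlabelled.

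The interaction of vector and sex (the vector effect in females minus that in males) was not past the threshold for any member, and edgeR called 0 of all genes (0%; 525 at an unadjusted p under 0.05, DESeq2 1, limma-voom 0). The largest was 0.65 (SE 0.43) for Cry1, whose vector change was -0.24 (SE 0.30) in females and -0.89 (SE 0.32) in males. Between the sexes under 1 vector, no member passed. PGR_F over PGR_M ran from -0.68 (SE 1.00) for Arntl to 0.65 (SE 1.01) for Per2, where 0.143% of all genes passed, and Con_F over Con_M from -0.67 (SE 0.93) for Arntl to 0.40 (SE 0.73) for Dbp, where 0.229% passed. The smallest adjusted p of a member was 0.860 under the PGR vector and 0.490 under the control vector, both for Nr1d2, which averaged 266 ± 56.9 CPM in PGR_F and 218 ± 7.13 in PGR_M, and 293 ± 61.7 CPM in Con_F and 229 ± 64.5 in Con_M. Without Con_F 4, still 0 members passed in any contrast.

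None of the other lists held a gene past the threshold in any contrast. Over all genes edgeR called 0% to 0.229% per contrast, so no call in lists this short is near that share. Of the other clock genes, 7 of 23 were above 0 in the averaged vector comparison with a median of -0.07, and the smallest p belonged to Nono (-0.19, SE 0.07, adjusted p = 0.213, edgeR), Rorb (0.23, SE 0.09, adjusted 0.267) and Ciart (-2.81, SE 1.07, adjusted 0.280). Of the heart clock outputs, 4 of 16 were above 0, with a median of -0.09, and the smallest p belonged to Bdh1, a ketone body enzyme gene (-0.64, SE 0.16, adjusted 0.127), Pdk4, a brake on glucose oxidation (1.496, SE 0.57, adjusted 0.280), and Ucp3 (0.75, SE 0.29, adjusted 0.280). Pdk4 had 193, 141 and 510.5 CPM in PGR_F, 23.2, 105, 54.3 and 205 CPM in Con_F, 464, 381 and 598 CPM in PGR_M, and 59.6, 187 and 282 CPM in Con_M, so the groups overlapped in females and not in males. The share of all genes that separate this way is not given here.

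Of the immediate early genes, 10 of 11 were above 0 in the averaged comparison, with a median of 0.52, and the smallest p belonged to Fos (1.68, SE 0.53, adjusted p = 0.205, edgeR), Atf3 (1.34, SE 0.46, adjusted 0.250) and Nr4a1 (1.15, SE 0.47, adjusted 0.296). Of the temperature-responsive genes 1 of 8 was above 0, with a median of -0.28, led by Rbm3 (-0.23, SE 0.07, adjusted 0.154), Hspa1b (-1.36, SE 0.44, adjusted 0.190) and Hsph1 (-1.01, SE 0.34, adjusted 0.220). Hspa1b has a near-identical copy, so its reads are uncertain. Of the glucocorticoid-responsive genes 6 of 11 were above 0, with a median of 0.02, and the smallest p belonged to Zbtb16 (-0.85, SE 0.41, adjusted 0.370), Tsc22d3 (-0.14, SE 0.08, adjusted 0.432) and Dusp1 (0.26, SE 0.18, adjusted 0.529). The part of these cues in the levels of the clock genes was not tested.

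Markers of other cells varied between libraries without a call, where at most 0.229% of all genes were called in a contrast. In the averaged vector comparison 8 of 8 macrophage and leukocyte markers and 5 of 5 atrial markers were above 0, with medians of 0.21 and 0.21, against 2 of 10 cardiomyocyte markers (median -0.10). The summed fibroblast markers were 49.8 to 92.6 CPM in PGR_F, 64.5 to 101 in Con_F, 31.1 to 76.0 in PGR_M and 25.4 to 55.2 in Con_M. In the comparisons within a sex, endothelial markers were above 0 in 0 of 8 cases for PGR_F over Con_F (median -0.18) and in 8 of 8 for PGR_M over Con_M (median 0.30), and cardiomyocyte markers in 1 of 10 (-0.17) and 5 of 10 (-0.03). For Con_F over Con_M, 8 of 8 fibroblast markers (median 0.85) and 8 of 8 endothelial markers (0.71) were above 0, and for PGR_F over PGR_M 8 of 8 (0.49) and 5 of 8 (0.25). Smooth muscle and pericyte markers summed to 301 to 363 CPM. Their part in the values of the clock genes was not tested.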

How the data were processed

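The deposited values are unnormalised read counts, whole numbers whose totals differ between libraries. Per the labels' protocols, RNA from Pcm1-sorted nuclei was depleted of ribosomal RNA and made into strand-aware libraries. STAR 2.5.3a, featureCounts 1.5.0, GRCm38 and mm10 stand, without roles, in the submitters' processing notes. Counted lengths equal gene spans. The broader table (55536 genes) was used.

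Counts were filtered with filterByExpr (16125 genes), TMM scaled and fitted with edgeR 4.0.16 in R 4.3.3 to 4 group means over all 13 libraries. For 6 contrasts, quasi-likelihood p-values were adjusted over all genes tested (Benjamini-Hochberg), and an adjusted p under 0.05 passed. Log2 CPM used a prior count of 2. Correlations were tested with 100000 two-sided permutations of libraries and adjusted over all genes. The scripts were tested on simulated data. The labels give libraries as separate samples without saying how pools were drawn, so p-values measure the spread between libraries.

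The 10 members always were named. Of each other list, members past the threshold were named, or else the 3 with the smallest p in the averaged vector comparison, and the 5 highest and 5 lowest correlates of Arntl and Dbp. Single libraries and other genes named for their correlations or values were chosen after these were seen. The members and lists were chosen with earlier results of these data known. Alternatives were DESeq2 1.42.0, limma-voom (limma 3.58.1), DESeq2 size factors, no count filter, the smaller deposited table, a replicate block, only the groups of the contrast, another prior count, and each library left out.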

Additional observations from a re-analysis of the deposited data

Results flagged for a closer look

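Per1 in the control-vector females was flagged because 1 library lay far from the other 3. Con_F 1 had 123 CPM, against 30.0 to 38.2 CPM in Con_F 2, 3 and 4, and the gap to the nearest of them was 0.910 of the whole range of the group, above Dixon's 95% critical value for 4 libraries. 11 groups of values were checked, and chance flags about 1 in 20.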

How the results depend on the processing

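In all alternatives, 0 members passed in any vector or sex comparison, the lowest adjusted p being 0.106 (Cry1, averaged vector effect, without Con_F 4, edgeR). Of 1468 values of members recomputed, 1331 kept their sign and their side of the threshold, 96 turned sign, 38 correlations no longer passed and 3 passed only in the alternative. With each library left out in turn, ranges that crossed 0 were, in log2 fold change, for PGR_F over Con_F, Arntl (-0.56 to 0.58), Cry2 (-0.16 to 0.18), Dbp (-0.70 to 0.12), Nr1d1 (-0.061 to 0.23) and Per1 (-0.91 to 0.043). Others were, for PGR_M over Con_M, Arntl (-0.42 to 0.60), Clock (-0.099 to 0.47), Cry2 (-0.21 to 0.21), Dbp (-0.87 to 0.42), Npas2 (-0.11 to 0.49), Nr1d1 (-0.059 to 0.23), Nr1d2 (-0.21 to 0.18) and Per1 (-1.11 to 0.11). Others were, for the averaged vector effect, Arntl (-0.23 to 0.34), Cry2 (-0.13 to 0.079), Dbp (-0.64 to 0.0086) and Nr1d2 (-0.20 to 0.022). Others were, for the vector effect in females minus that in males, Arntl (-0.65 to 0.50), Clock (-0.15 to 0.42), Cry2 (-0.26 to 0.24), Dbp (-0.83 to 0.58), Npas2 (-0.17 to 0.43), Nr1d1 (-0.14 to 0.16), Nr1d2 (-0.32 to 0.073), Per1 (-0.83 to 0.74) and Per2 (-0.36 to 1.42). Others were, for PGR_F over PGR_M, Cry2 (-0.052 to 0.18) and Nr1d1 (-0.12 to 0.15). Others were, for Con_F over Con_M, Cry2 (-0.18 to 0.32), Dbp (-0.13 to 1.28), Nr1d1 (-0.12 to 0.17), Per1 (-0.40 to 1.17) and Per2 (-0.78 to 1.01). Others were, for the r with Dbp, Nr1d1 (-0.054 to 0.22). Under other alternatives the sign turned for the vector effect in females minus that in males of Arntl (0.24 with a replicate block), Cry2 (-0.0086 with no count filter and -0.029 with the block) and Dbp (-0.079 with limma-voom and -0.28 with the block), for PGR_F over PGR_M of Nr1d1 (-0.0076 with the block), and for Con_F over Con_M of Nr1d1 (-0.032 with the block) and Per2 (-0.090 with limma-voom). The cause was not tested.

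The range of clock state was 4.53 on the log2 scale, against 7.04 from Dbp and Arntl only, with Con_F 1 highest and Con_M 3 lowest in both. The 333 genes related to Arntl became 13 to 458 with 1 library left out, and the 92 related to Dbp became 0 to 181, lowest without Con_F 1 in both. With group means removed 0 genes passed for either, where 5184 arrangements within groups allow no p under 0.000193. Over all genes, the averaged vector comparison called 1 gene, against 17 with the Arntl covariate, 334 with DESeq2, 146 with no filter, 338 without Con_F 4, 34 without PGR_F 4, 4 without PGR_M 2, and 2 with limma-voom, without Con_M 3 or without PGR_M 1. PGR_F over Con_F called 0, against 81 with DESeq2, 25 with no filter, 20 without Con_F 4 and 4 with the covariate. PGR_M over Con_M called 0, against 29 with DESeq2, 12 with no filter, 3 without PGR_M 2, 2 with the covariate, and 1 without Con_F 4 or with only these groups. The interaction called 0, against 1 with DESeq2 or no filter. PGR_F over PGR_M called 23, against 80 with DESeq2, 51 with no filter, 56 with only these groups, 35 with the block and 10 to 44 with 1 library left out. Con_F over Con_M called 37, against 224 with DESeq2, 131 with no filter, 17 with only these groups, 25 with the block and 14 to 99 with 1 library left out. The replicate block called 0 members. Of 16 same-numbered pairs of libraries, 3 had a correlation of deviations above 0.1 (-0.25 to 0.25). Their median was -0.018, against -0.012 over 47 pairs with different numbers. The highest same-numbered pair was Con_F 1 with Con_M 1 (0.25). Whether some libraries with the same number share a batch was not tested. Depth limits Ciart, with 4 counts in Con_M 3, and the lowest count of a member was 159 (Cry1, Con_F 4).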
